A study of Homo sapiens with 6 samples.

Results

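The DNA replication and nucleotide synthesis genes are 40 named genes whose products license origins, unwind and copy DNA, supply deoxynucleotides, start S phase or assemble chromatin behind the fork. The rule that picks them names genes and uses no measured value, although it was written with earlier results of these data known. They were matched on the gene symbol in the deposited tables. All 40 were found among 26485 genes, and all 40 were among the 14195 genes tested, which reached 1 TPM in at least 2 of the 6 libraries. TPM is the abundance of a gene's transcripts on a scale with the same total in every library. Messenger RNA was sequenced from 3 human lines with 2 libraries each: PC9, derived from a lung adenocarcinoma with mutant EGFR, and the related lines PC9-BrM4 and PC9-AMG. The labels state no treatment, time, clone or passage for any line, and all were grown in conventional culture. The labels do not say how PC9-BrM4 arose; elsewhere it is described as a subline of PC9 selected for metastasis to brain. The sources used here do not explain the name AMG. Each line was compared with each other line, so the comparisons of PC9-BrM4 and of PC9-AMG with PC9 share the PC9 libraries, and both comparisons of PC9-AMG share its own.

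Replication begins when the origin recognition complex, CDC6 and CDT1 load the ring-shaped MCM helicase onto DNA in G1. In S phase CDC45 and the GINS complex join the MCM ring to form the active helicase, polymerase alpha primes both strands, and the RFC clamp loader places the sliding clamp PCNA, which holds polymerases delta and epsilon on the template. Many of these genes are transcribed at the G1/S boundary by E2F factors, which the retinoblastoma protein RB1 holds inactive until cyclin-dependent kinases phosphorylate it. In EGFR-mutant lung adenocarcinoma lines such as PC9, EGFR signalling drives this entry into S phase.

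The libraries held 2.66 to 4.39 gigabases of aligned sequence and 13455 to 13764 genes at 1 TPM or more. The median member had a coverage of 71.5 to 107 reads per base, and no member was at 0 in any library. Epithelial markers were present as the labels imply, with 6 of 6 at 1 TPM or more in every library and EPCAM at 665 to 726 TPM. Lung lineage markers were absent by the same standard, with 0 of 4 at 1 TPM in every library, SFTPC at 0 and NKX2-1 at no more than 0.0409 TPM. Of the other cell types, the 4 fibroblast markers summed to 4.78 and 5.02 TPM in PC9, 3.68 and 4.45 in PC9-BrM4, against 14.4 and 14.8 in PC9-AMG. COL1A2 and DCN were at 0 throughout and COL1A1 made up nearly all of that sum. The 4 leukocyte markers summed to 9.54 and 9.59, 22.2 and 23.5, and 12.6 and 13.1 TPM in the same order, nearly all of it CD74, with PTPRC at no more than 0.15 TPM. The 3 endothelial markers summed to 2.25 to 6.04 TPM, with the highest sums in PC9-AMG. The 4 astrocyte and neuron markers summed to at most 0.24 TPM. The part of these markers in the results below was not tested.

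Most of the replication genes were lower in PC9-AMG than in either other line. By the test given below, 30% of them were higher in PC9-BrM4 than in PC9 and 27.5% lower. Those shares stood beside 23.4% and 23.1% of all tested genes. Summed over the 40 genes, the transcripts came to 4468 and 4525 TPM in PC9, 4528 and 4588 in PC9-BrM4, against 3477 and 3588 in PC9-AMG. That was 0.447% and 0.453%, 0.453% and 0.459%, and 0.348% and 0.359% of each library's total. PC9-AMG lay below the other 4 libraries, and the PC9 and PC9-BrM4 libraries did not overlap but lay close together. The median member was at 71.8 and 71 TPM in PC9, 62.3 and 65.4 in PC9-BrM4, against 54.8 and 57.6 in PC9-AMG. In RNA from whole cultures, fewer cells of a kind (here, cells in S phase) and less RNA per cell cannot be told apart. TPM has a fixed total per library, so all values are relative to the rest of the transcriptome.

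PC9-AMG had 25 of the 40 members lower than PC9 and 4 higher, at an adjusted p of at most 0.05 in limma (the rule for every call below). Over all tested genes 27.7% were lower and 27.8% were higher. The median log2 fold change of the members was -0.26, beside -0.01 over all tested genes. The PC9-AMG and PC9 libraries did not overlap for 36 members, and 79.8% of all tested genes likewise did not overlap. On the log2(TPM + 1) scale 4 members differed by 1.5-fold or more: PCNA, GINS2, GINS1 and RFC3, all lower in PC9-AMG.

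Against PC9-BrM4, 27 members were lower in PC9-AMG and 2 were higher, with 28% of all tested genes lower and 28.1% higher. The members' median log2 fold change was -0.24, beside -0.01 over all tested genes. Libraries did not overlap for 35 members, beside 77.5% of all tested genes. PC9-BrM4 against PC9 gave 12 members higher and 11 lower, where 23.4% of all tested genes were higher and 23.1% lower. Those members' median was 0.03, beside -0.00 over all tested genes, and the libraries did not overlap for 35 members, beside 75.2% of all tested genes. After quantile normalization the split of PC9-BrM4 against PC9 was 9 higher and 13 lower.

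**Figure D1:**
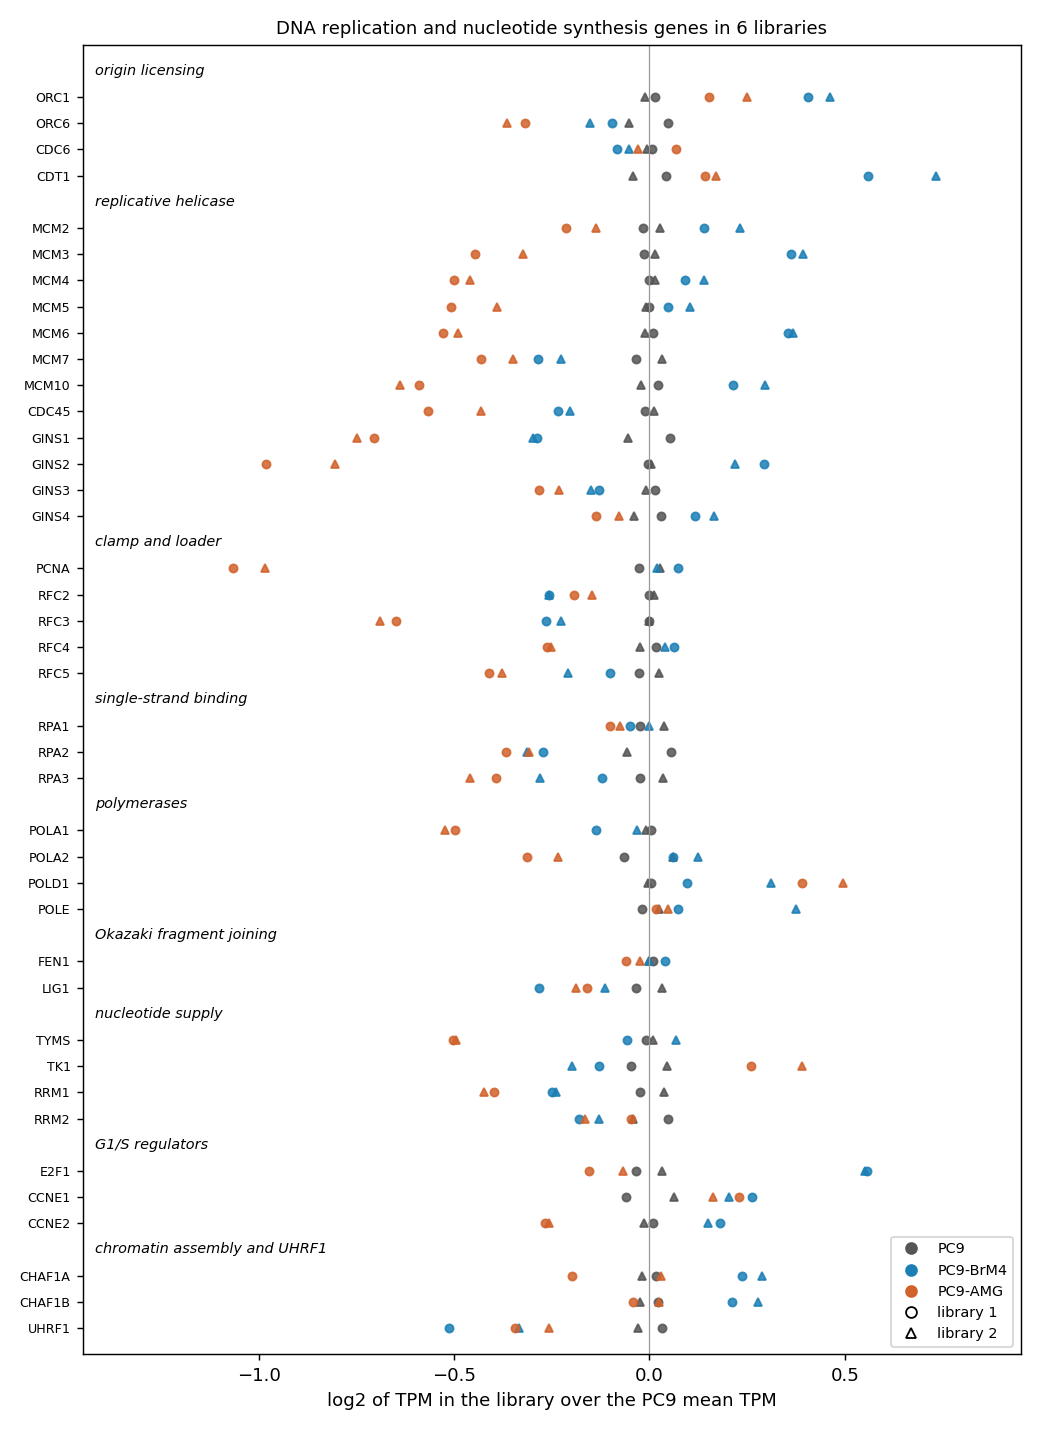
Level of each of the 40 genes in each of the 6 libraries, as the log2 ratio of its TPM to the mean TPM of the 2 PC9 libraries (horizontal axis), with genes grouped by role; circles are library 1 and triangles library 2 of a line. The PC9-AMG libraries lie left of the PC9 libraries for all 12 helicase genes and all 5 clamp and loader genes, and PC9-BrM4 lies right of PC9 for the 3 G1/S regulators.

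Promoter sequences were searched for letters that the members share, since many of them moved together in PC9-AMG. RefSeq promoters of build GRCh38.p14, from 250 bases before to 50 bases after the annotated start, were matched for 34 of the 40 members. The E2F consensus was searched on both strands as TTTGGCGC, TTTCCCGC, TTTCGCGC and TTTGCCGC, which can overlap one another, and the NF-Y letters as CCAAT. E2F letters were in 18 of the 34 member promoters (52.9%), in 3.33% of 27305 RefSeq promoters and in 5.37% of the 10068 promoters of tested genes. CCAAT was in 20 of the 34 (58.8%), in 35.7% of all promoters and in 36.7% of those of tested genes. Of the members lower in PC9-AMG than in PC9, 13 of 20 with a promoter held E2F letters, as did 0 of 4 that were higher and 5 of 10 that were not called. In PC9-AMG against PC9-BrM4 they were in 13 of 22 lower, 0 of 2 higher and 5 of 10 not called. In PC9-BrM4 against PC9 they were in 6 of 11 higher, 5 of 9 lower and 7 of 14 not called. Whether the letters go with the direction of change was not tested. A match is a description of letters and not a bound site.

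Shown here are the promoters of the member with the largest fall from PC9 to PC9-AMG (PCNA) and of a helicase subunit with 4 matches (MCM6). Also shown are those of the members with the largest rises from PC9 to PC9-BrM4 (CDT1 and E2F1). The last promoter is that of a member that rose in PC9-AMG and has no match (TK1). The sequences run 5′ to 3′ on the gene's strand up to the annotated start, or to where the deposited table starts the gene if that is further upstream. Capitals mark E2F letters or CCAAT read on either strand, where the whole match lies in the printed stretch. Another E2F match in the E2F1 promoter, TTTGGCGC, runs past the printed end and is not marked. PCNA lies at chr20:5126623-5126872 (minus strand), MCM6 at chr2:135876478-135876693 (minus), CDT1 at chr16:88803539-88803777 (plus), E2F1 at chr20:33686405-33686635 (minus) and TK1 at chr17:78187205-78187454 (minus).
PCNA: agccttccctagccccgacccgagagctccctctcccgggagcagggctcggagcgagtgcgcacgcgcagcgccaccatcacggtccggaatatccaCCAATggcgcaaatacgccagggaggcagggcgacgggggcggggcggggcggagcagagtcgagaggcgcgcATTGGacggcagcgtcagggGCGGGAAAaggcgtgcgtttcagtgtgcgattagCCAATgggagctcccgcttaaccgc
MCM6: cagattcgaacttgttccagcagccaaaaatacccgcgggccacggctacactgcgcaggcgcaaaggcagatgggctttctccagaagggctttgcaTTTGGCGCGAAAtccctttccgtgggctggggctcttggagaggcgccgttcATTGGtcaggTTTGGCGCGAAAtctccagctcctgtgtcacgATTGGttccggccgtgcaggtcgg
CDT1: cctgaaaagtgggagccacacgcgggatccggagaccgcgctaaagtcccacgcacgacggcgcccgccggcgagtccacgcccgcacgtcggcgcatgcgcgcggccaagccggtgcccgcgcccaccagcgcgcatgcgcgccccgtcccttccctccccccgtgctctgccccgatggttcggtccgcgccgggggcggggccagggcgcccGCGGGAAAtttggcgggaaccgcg
E2F1: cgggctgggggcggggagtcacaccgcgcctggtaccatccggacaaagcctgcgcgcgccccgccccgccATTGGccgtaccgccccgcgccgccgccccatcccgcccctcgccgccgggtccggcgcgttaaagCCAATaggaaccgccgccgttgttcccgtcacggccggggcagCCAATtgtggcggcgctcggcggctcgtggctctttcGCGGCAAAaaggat
TK1: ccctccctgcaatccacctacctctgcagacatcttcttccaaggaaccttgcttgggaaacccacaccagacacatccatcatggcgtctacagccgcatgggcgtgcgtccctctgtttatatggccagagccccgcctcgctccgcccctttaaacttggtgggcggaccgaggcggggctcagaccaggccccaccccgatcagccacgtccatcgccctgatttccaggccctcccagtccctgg
In PCNA the E2F letters start 59 bases before the annotated start and stand between CCAAT boxes. In MCM6 each of 2 stretches holds TTTGGCGC on one strand and TTTCGCGC on the other, sharing bases. The TK1 window held neither motif, which says only that these letters are not in it.

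Origin licensing genes were split between the lines. CDT1, which loads the MCM ring and is held back by geminin outside G1, lies at chr16:88803778-88809258 on hg38. Its level was 38.9 and 36.7 TPM in PC9, 55.7 and 62.8 in PC9-BrM4, against 41.7 and 42.5 in PC9-AMG, so the PC9-BrM4 libraries stood above the other 4. CDT1 rose in PC9-BrM4 over PC9 by a log2 fold change of 0.63 (SE 0.068, limma adjusted p 0.000306). In PC9-AMG it was 0.48 lower than in PC9-BrM4 on the log2 scale (log2 fold change -0.48, adjusted p 0.000754), and it missed the threshold against PC9 (0.15, adjusted p 0.0908). ORC1, the largest subunit of the origin recognition complex, was at 38.3 and 37.6 TPM in PC9, 50.2 and 52.2 in PC9-BrM4, against 42.1 and 45.1 in PC9-AMG, with the lines in 3 separate ranges. It rose in PC9-BrM4 and in PC9-AMG over PC9, by log2 fold changes of 0.42 and 0.20.

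ORC6, the smallest subunit, had 45.3 and 42.2 TPM in PC9, 41 and 39.4 in PC9-BrM4, against 35.1 and 34 in PC9-AMG. It was lower in PC9-AMG than in PC9 (log2 fold change -0.33, SE 0.058, limma adjusted p 0.00225) and not called between PC9-BrM4 and PC9. CDC6, the ATPase that works beside CDT1, stayed between 75 and 83.4 TPM in all 6 libraries and was called in no comparison. The ratio of CDT1 to CDC6 was therefore 0.487 and 0.464 in PC9, 0.742 and 0.818 in PC9-BrM4, against 0.501 and 0.546 in PC9-AMG.

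The replicative helicase was lower in PC9-AMG in nearly all its parts. Of its 12 genes, 11 fell against PC9 and 11 against PC9-BrM4, where 27.7% and 28% of all tested genes were lower. GINS2, a subunit of the 4-part GINS ring that tethers CDC45 to the MCM complex, lies at chr16:85677674-85688982. It had 96.9 and 97.3 TPM in PC9, 119 and 113 in PC9-BrM4, against 49.2 and 55.6 in PC9-AMG, with no overlap between lines. Its level fell by 46.1% from PC9 to PC9-AMG (log2 fold change -0.88, SE 0.064, limma adjusted p 4.39e-05). From PC9-BrM4 to PC9-AMG the log2 fold change was -1.14 (adjusted p 9.43e-06), and PC9-BrM4 was 0.26 above PC9 (adjusted p 0.0132).

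GINS1 was at 45.1 and 41.9 TPM in PC9, 35.6 and 35.4 in PC9-BrM4, against 26.7 and 25.9 in PC9-AMG, with each line in its own range. Against PC9 it was -0.28 in PC9-BrM4 and -0.71 in PC9-AMG as log2 fold changes. GINS3 and GINS4 moved less. GINS3 was lower in PC9-AMG than in PC9 (log2 fold change -0.25), and GINS4 was lower in PC9-AMG than in PC9-BrM4 (-0.23). GINS2 exceeded GINS4, the least abundant subunit, by 5.01- and 5.29-fold in PC9, by 5.82- and 5.35-fold in PC9-BrM4 and by 2.85- and 3.1-fold in PC9-AMG, so the subunit levels lay closer together in PC9-AMG.

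The 6 subunits of the MCM ring were all lower in PC9-AMG than in PC9, by 11.6% for MCM2 to 29.7% for MCM6. MCM2 (chr3:127598357-127622435), which also carries histones at the fork, had 165 and 170 TPM in PC9, 184 and 196 in PC9-BrM4, against 144 and 152 in PC9-AMG. The log2 fold change of MCM2 was 0.18 in PC9-BrM4 (SE 0.05, limma adjusted p 0.02) and -0.18 in PC9-AMG (SE 0.05, adjusted p 0.019), each against PC9. MCM3 (chr6:52264014-52284881) had 212 and 216 TPM in PC9, 275 and 281 in PC9-BrM4, against 157 and 171 in PC9-AMG. It showed the largest rise of a helicase gene in PC9-BrM4 over PC9, a log2 fold change of 0.37 (SE 0.051, adjusted p 0.000841), and was 0.76 lower in PC9-AMG than in PC9-BrM4 on that scale (log2 fold change -0.76).

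MCM6 followed the same order, with 89.7 and 88.4 TPM in PC9, 114 and 115 in PC9-BrM4, against 61.8 and 63.4 in PC9-AMG. Its log2 fold change against PC9 was 0.36 in PC9-BrM4 and -0.50 in PC9-AMG, and PC9-AMG against PC9-BrM4 gave -0.86. MCM4 and MCM5 did not differ by the test between PC9-BrM4 and PC9 (log2 fold changes 0.11 and 0.08, adjusted p 0.0728 and 0.246). Both were lower in PC9-AMG than in PC9, by -0.48 and -0.45 on the log2 scale. MCM7 alone among the 6 was called lower in PC9-BrM4 than in PC9, at a log2 fold change of -0.25 beside 98 neighbours at -0.19, and relative to its region it was at -0.06 and not called. It had 295 and 309 TPM in PC9, 248 and 258 in PC9-BrM4, against 224 and 237 in PC9-AMG. MCM7 was thus the most abundant subunit in PC9 and PC9-AMG and MCM3 in PC9-BrM4, while MCM6 was the least abundant in all 6 libraries.

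CDC45, which completes the active helicase, had 58 and 59 TPM in PC9, 49.7 and 50.8 in PC9-BrM4, against 39.5 and 43.4 in PC9-AMG. CDC45 fell in both related lines, by log2 fold changes of -0.21 in PC9-BrM4 and -0.49 in PC9-AMG. MCM10, which helps start the assembled helicase, had 28.1 and 27.3 TPM in PC9, 32.1 and 34 in PC9-BrM4, against 18.4 and 17.8 in PC9-AMG. MCM10 was higher than PC9 in PC9-BrM4 (log2 fold change 0.25) and lower in PC9-AMG (-0.58). MCM7 overlaps AP4M1 on the other strand (mean 11.4 TPM) and hosts MIR25, MIR93 and MIR106B, and the sources used here do not say whether strand was used in counting.

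**Figure D2:**
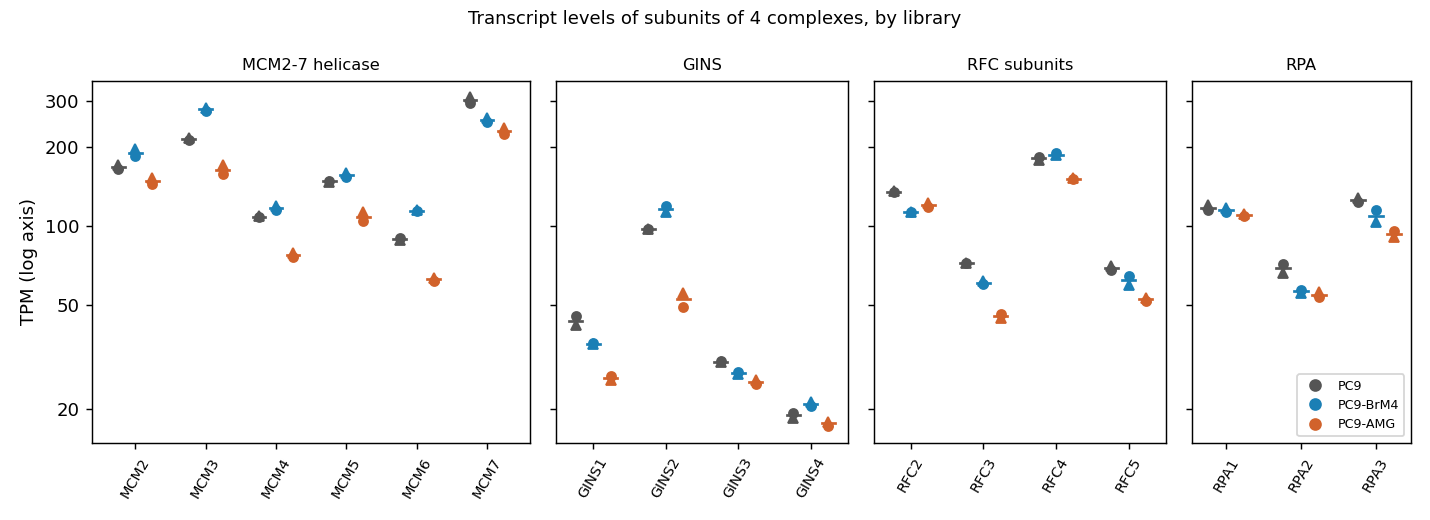
TPM on a log axis of the subunits of the MCM ring, GINS, the 4 RFC subunits among the members, and RPA; points are libraries (circle library 1, triangle library 2), bars are line means. MCM3 leads the ring in PC9-BrM4 at 275 and 281 TPM and MCM7 in the other lines, and GINS2 drops to 49.2 and 55.6 TPM in PC9-AMG.

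The sliding clamp changed more than any other member between PC9-AMG and PC9. PCNA, the ring that holds polymerases on DNA and docks repair and chromatin factors, lies at chr20:5114953-5126622 on the minus strand. PCNA was at 703 and 730 TPM in PC9, 753 and 726 in PC9-BrM4, against 342 and 362 in PC9-AMG. The PC9 and PC9-BrM4 libraries overlapped and both stood far above PC9-AMG. The level in PC9-AMG fell by 50.8% from PC9, a log2 fold change of -1.02 (SE 0.045, limma adjusted p 6.23e-06). Against PC9-BrM4 the log2 fold change was -1.07 (adjusted p 2.72e-06), while PC9-BrM4 and PC9 were not called different (0.05, adjusted p 0.431). PCNA was 4.27 and 4.3 times the level of MCM2 in PC9, 4.09 and 3.71 times in PC9-BrM4, and 2.38 and 2.38 times in PC9-AMG. Its antisense neighbour PCNA-AS1 averaged 0.0678 TPM.

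Of the RFC clamp loader, all 4 subunits among the members were lower in PC9-AMG than in PC9, as were 27.7% of all tested genes. RFC1, a loader subunit outside the members, had 52.9 and 52 TPM in PC9 and 54.2 and 49.3 in PC9-AMG. RFC1 was not called between these lines (log2 fold change -0.02, limma adjusted p 0.789). It was higher in PC9-BrM4 than in PC9 (0.29, adjusted p 0.00546). RFC3 had 72 and 72 TPM in PC9, 59.9 and 61.5 in PC9-BrM4, against 45.9 and 44.6 in PC9-AMG, so each line held its own range. RFC3 fell by log2 fold changes, against PC9, of -0.24 in PC9-BrM4 and -0.66 in PC9-AMG (SE 0.047, limma adjusted p 4.07e-05). Relative to its region RFC3 was still called lower in PC9-AMG than in PC9, at -0.27 beside 29 neighbours at -0.43. In PC9-BrM4 against PC9 it turned to 0.15, beside neighbours at -0.40. RFC2 was at 135 and 136 TPM in PC9, 113 and 113 in PC9-BrM4, against 118 and 122 in PC9-AMG. Among the 4 loader genes of the members, RFC2 had the largest change in PC9-BrM4 against PC9 (-0.25 on the log2 scale, limma adjusted p 0.00219). RFC4 and RFC5 fell in PC9-AMG by log2 fold changes of -0.25 and -0.39 against PC9 and were not called between PC9-BrM4 and PC9. RFC4 overlaps the more abundant EIF4A2 on the other strand, at 513 TPM on average, so its level is uncertain.

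RPA, the heterotrimer that coats single-stranded DNA, had 2 of 3 subunits lower in PC9-AMG and in PC9-BrM4 than in PC9. Of all tested genes 27.7% and 23.1% were lower in these comparisons. RPA3, the smallest subunit, had 123 and 128 TPM in PC9, 115 and 103 in PC9-BrM4, against 95.2 and 90.9 in PC9-AMG. The log2 fold change of RPA3 was -0.43 in PC9-AMG against PC9 (SE 0.062, limma adjusted p 0.000901) and -0.22 against PC9-BrM4 (adjusted p 0.0163). RPA3 overlaps UMAD1 (mean 24.5 TPM) on the other strand. RPA2, the subunit phosphorylated during replication stress, was at 71.7 and 66.3 TPM in PC9, 57.1 and 55.5 in PC9-BrM4, against 53.5 and 55.7 in PC9-AMG. PC9 stood above both related lines, whose libraries overlapped; the log2 fold change was -0.29 in PC9-BrM4 (adjusted p 0.00447) and -0.33 in PC9-AMG (adjusted p 0.00185). RPA1, the main DNA-binding subunit, stayed at 109 to 120 TPM and was called in no comparison.

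The polymerase genes did not move as a group. POLA1, the catalytic subunit of the priming polymerase, had 32.3 and 32 TPM in PC9, 29.3 and 31.5 in PC9-BrM4, against 22.8 and 22.4 in PC9-AMG. It fell by 29.8% from PC9 to PC9-AMG (log2 fold change -0.49, SE 0.06, limma adjusted p 0.00039) and was 0.41 below PC9-BrM4 on that scale (log2 fold change -0.41). POLA2, its partner, was also lower in PC9-AMG, by -0.27 against PC9 and -0.36 against PC9-BrM4. POLD1, the catalytic subunit of the lagging-strand polymerase, went the other way. It had 46.5 and 46.3 TPM in PC9, 49.6 and 57.6 in PC9-BrM4, against 60.8 and 65.4 in PC9-AMG. POLD1 rose in PC9-AMG, by a log2 fold change of 0.43 against PC9 (SE 0.076, adjusted p 0.00217) and of 0.24 against PC9-BrM4 (adjusted p 0.0307). Its 178 neighbours on the chromosome were at 0.47 and 0.51 in these comparisons. Relative to its region POLD1 was at -0.03 against PC9, which was not called, and was called lower against PC9-BrM4, at -0.28.

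POLE, the catalytic subunit of the leading-strand polymerase, was at 35.6 and 36.7 TPM in PC9, 38 and 46.8 in PC9-BrM4, against 36.5 and 37.3 in PC9-AMG. It was called in no comparison, and its PC9-BrM4 libraries differed more than those of any other member within a line. The ratio of POLD1 to POLA1 was 1.44 in both PC9 libraries, 1.69 and 1.83 in PC9-BrM4, against 2.67 and 2.92 in PC9-AMG.

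The genes that finish Okazaki fragments, the short pieces of the lagging strand, changed little in TPM. LIG1, the ligase that seals them, had 71.9 and 75.3 TPM in PC9, 60.5 and 68 in PC9-BrM4, against 65.9 and 64.6 in PC9-AMG. It was lower in PC9-BrM4 than in PC9 (log2 fold change -0.20, SE 0.064, limma adjusted p 0.0379) and just missed the threshold in PC9-AMG (-0.17, adjusted p 0.0521). Relative to its region LIG1 was called lower in PC9-AMG, at -0.58 against PC9 and -0.46 against PC9-BrM4. Its 237 neighbours were at 0.42 and 0.49 there. The fall in PC9-BrM4 against PC9 was -0.12 relative to the region and not called. FEN1, the nuclease that trims the primer flap, had 176 and 175 TPM in PC9, 180 and 175 in PC9-BrM4, against 168 and 172 in PC9-AMG. It was called in no comparison. FEN1 binds PCNA, and the ratio of PCNA to FEN1 was 3.99 and 4.17 in PC9, 4.19 and 4.14 in PC9-BrM4, against 2.04 and 2.1 in PC9-AMG.

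TYMS fell and TK1 rose in PC9-AMG. TYMS, thymidylate synthase, makes dTMP de novo from dUMP and is the target of fluoropyrimidines; it lies at chr18:657604-673499. TYMS was at 328 and 332 TPM in PC9, 317 and 346 in PC9-BrM4, against 233 and 234 in PC9-AMG, so PC9-AMG lay below the overlapping ranges of the other lines. The fall from PC9 was 29.3% (log2 fold change -0.50, SE 0.049, limma adjusted p 0.000146), and against PC9-BrM4 the log2 fold change was -0.51 (adjusted p 0.000109). TK1, thymidine kinase, makes dTMP from salvaged thymidine. It had 181 and 193 TPM in PC9, 171 and 163 in PC9-BrM4, against 224 and 245 in PC9-AMG. TK1 rose by 0.32 on the log2 scale from PC9 to PC9-AMG (SE 0.058, adjusted p 0.00249) and was 0.49 higher than in PC9-BrM4 (adjusted p 0.00032). Relative to its neighbours on the chromosome neither rise was called. The ratio of TK1 to TYMS was 0.553 and 0.581 in PC9, 0.539 and 0.471 in PC9-BrM4, against 0.962 and 1.05 in PC9-AMG. TYMS overlaps ENOSF1 (mean 17.6 TPM) and TYMSOS (5.1 TPM) on the other strand.

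Ribonucleotide reductase, which turns ribonucleotides into deoxyribonucleotides, is built from RRM1 and RRM2. RRM1, the large catalytic subunit, had 116 and 121 TPM in PC9, 99.3 and 99.9 in PC9-BrM4, against 89.6 and 88 in PC9-AMG, 3 ranges that did not overlap. Its log2 fold change against PC9 was -0.25 in PC9-BrM4 (SE 0.044, limma adjusted p 0.00301) and -0.41 in PC9-AMG (adjusted p 0.000212). RRM2, the small subunit made in S phase, had 219 and 206 TPM in PC9, 187 and 194 in PC9-BrM4, against 205 and 189 in PC9-AMG. It was lower in PC9-BrM4 than in PC9, close to the threshold (log2 fold change -0.16, adjusted p 0.0473), and not called in PC9-AMG (-0.11, adjusted p 0.138).

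The 3 G1/S regulators were each called higher in PC9-BrM4 than in PC9, where 23.4% of all tested genes were. For CCNE1 that call ended relative to its region (0.01, beside 33 neighbours at 0.23). E2F1, an activator of S-phase genes, lies at chr20:33675486-33686404. It had 60.8 and 63.7 TPM in PC9, 91.6 and 91.4 in PC9-BrM4, against 56 and 59.4 in PC9-AMG, so PC9-BrM4 stood apart from both other lines. The rise from PC9 to PC9-BrM4 was 47% (log2 fold change 0.55, SE 0.051, limma adjusted p 0.000163). The log2 fold change of E2F1 in PC9-AMG was -0.66 against PC9-BrM4 (adjusted p 3.97e-05) and not called against PC9 (-0.11, adjusted p 0.107).

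The 2 cyclins E activate CDK2 at S-phase entry. CCNE1 had 23.5 and 25.6 TPM in PC9, 29.4 and 28.2 in PC9-BrM4, against 28.7 and 27.4 in PC9-AMG. Its log2 fold change against PC9 was 0.22 in PC9-BrM4 (SE 0.066, limma adjusted p 0.0262) and 0.19 in PC9-AMG (adjusted p 0.0424). CCNE2 had 34 and 33.5 TPM in PC9, 38.3 and 37.5 in PC9-BrM4, against 28.1 and 28.3 in PC9-AMG. Its log2 fold change against PC9 was 0.16 in PC9-BrM4 (SE 0.052, adjusted p 0.0356) and -0.25 in PC9-AMG (adjusted p 0.00461). The fall in PC9-AMG was -0.09 and not called relative to its region, where 41 neighbours were at -0.14. CCNE2 (mean 33.3 TPM) overlaps the more abundant INTS8 (mean 49.8 TPM) on the other strand, so the level of CCNE2 is uncertain. The ratio of CCNE1 to CCNE2 was 0.692 and 0.762 in PC9, 0.767 and 0.751 in PC9-BrM4, against 1.02 and 0.969 in PC9-AMG.

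Of the genes acting behind the fork, both CAF-1 subunits were called higher and UHRF1 lower in PC9-BrM4 than in PC9. In that comparison 23.4% of all tested genes were higher and 23.1% lower. Relative to their regions CHAF1A and CHAF1B were at 0.09 and 0.08 and not called, and UHRF1 was at -0.58. CHAF1A, which deposits new histones with PCNA, had 32.9 and 32.1 TPM in PC9, 38.3 and 39.7 in PC9-BrM4, against 28.3 and 33.2 in PC9-AMG. The log2 fold change of CHAF1A was 0.25 in PC9-BrM4 against PC9 (SE 0.077, limma adjusted p 0.0303) and -0.34 in PC9-AMG against PC9-BrM4 (adjusted p 0.00765). CHAF1B had log2 fold changes of 0.24 and -0.25 in the same comparisons. Neither was called between PC9-AMG and PC9. UHRF1, which brings the maintenance methylase DNMT1 to newly copied DNA, lies at chr19:4903080-4962154. It had 55.3 and 53 TPM in PC9, 37.9 and 42.9 in PC9-BrM4, against 42.6 and 45.3 in PC9-AMG. PC9 stood above both other lines, whose libraries overlapped; the log2 fold change was -0.42 in PC9-BrM4 (SE 0.071, adjusted p 0.00245) and -0.29 in PC9-AMG (adjusted p 0.00934).

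Which library was left out changed the counts of PC9-BrM4 against PC9 and the small counts of rises. Members higher in PC9-BrM4 went from 12 to 6 without PC9 library 1, 6 without PC9 library 2 and 7 without PC9-BrM4 library 2, and members lower went from 11 to 6 and 7 without PC9 libraries 1 and 2. MCM2, MCM10, CDC45, RPA3, RRM2, CCNE2 and CHAF1A lost their call in each of those 3 cases. CDC45, RRM2, CCNE2 and CHAF1A also lost it without PC9-BrM4 library 1, and so without any 1 of the libraries compared. GINS2 and LIG1 lost it without either PC9 library or PC9-BrM4 library 1, and LIG1 also without either PC9-AMG library. CCNE1 lost it without PC9 library 1 or either PC9-BrM4 library, GINS1 without PC9 library 1 and CHAF1B without PC9 library 2. Members higher in PC9-AMG than in PC9 went from 4 to 2 without PC9 library 1, PC9 library 2 or PC9-AMG library 2, with ORC1 and CCNE1 losing the call each time. Those higher than in PC9-BrM4 went from 2 to 1, POLD1 losing its call, without PC9-BrM4 library 1 or either PC9-AMG library. The counts of falls in PC9-AMG moved less, at 21 to 26 members against PC9 and 24 to 26 against PC9-BrM4 with any 1 library left out. CCNE1 against PC9 lost its call without any 1 of the 4 libraries compared, and MCM2 without either PC9 library or PC9-AMG library 1. RFC2 lost it without either PC9 library, GINS3 without PC9 library 1, POLA2 without PC9 library 2, and UHRF1 without PC9 library 1 or PC9-AMG library 1. Against PC9-BrM4, MCM7 lost its call in 11 of 17 alternatives, ORC6 and RPA3 without PC9-BrM4 library 1 or PC9-AMG library 2, GINS4 without PC9-BrM4 library 2 or PC9-AMG library 1, ORC1 without PC9-AMG library 1 and RRM1 without PC9-AMG library 2.

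Other genes of the same pathways, 153 in 5 lists, were counted for comparison, and 152 were tested. In PC9-AMG against PC9, 27.7% of all tested genes were lower and 27.8% higher. Among 41 other licensing and fork genes, 22 (53.7%) were lower and 4 (9.76%) higher, and the list's median log2 fold change was -0.23. POLE2, the second subunit of polymerase epsilon, fell furthest among them, from 19.2 and 18.7 TPM in PC9 to 7.94 and 10.8 in PC9-AMG (log2 fold change -0.95, SE 0.12, limma adjusted p 0.000524). CLSPN, which relays checkpoint signals at stalled forks, rose most, from 27.1 and 25.3 to 32.5 and 33 TPM (0.31, adjusted p 0.00668); without PC9 library 2 it was 0.27 and no longer called, and relative to its region nothing of the rise remained. Against PC9-BrM4, 56.1% of the list were lower in PC9-AMG and 17.1% higher, beside 28% and 28.1% of all tested genes. In PC9-BrM4 against PC9 the same list had 11 (26.8%) higher and 13 (31.7%) lower, beside 23.4% and 23.1% of all tested genes. TOP2A, the topoisomerase that untangles sister DNAs, fell there from 213 and 214 to 128 and 130 TPM (-0.72, adjusted p 3.67e-05). The 11 became 5, 7 and 6 without PC9 library 1, PC9 library 2 and PC9-BrM4 library 2, the 13 became 8 without PC9 library 1 or with the regional median removed, and quantile normalization gave 8 and 15. The 4 higher in PC9-AMG than in PC9 became 0 to 2 without any 1 of the libraries compared, and 2 with the regional median removed. Against PC9-BrM4, 23 of the list were lower in PC9-AMG and 7 higher, and the 7 became 3 without PC9-BrM4 library 1 and 4 without PC9-AMG library 1 or with the regional median removed.

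Nucleotide synthesis beyond the members differed by line. Of 37 such genes, 18 (48.6%) were higher and 5 (13.5%) lower in PC9-BrM4 than in PC9 (median log2 fold change 0.15). Of all tested genes 23.4% and 23.1% were. In PC9-AMG against PC9, 9 (24.3%) were higher and 19 (51.4%) lower (median -0.14), beside 27.8% and 27.7% of all tested genes. Against PC9-BrM4, 16.2% were higher in PC9-AMG and 62.2% lower, beside 28.1% and 28% of all tested genes. CTPS1, which makes CTP from UTP, rose from 162 and 157 TPM in PC9 to 424 and 412 in PC9-AMG, with 201 and 208 in PC9-BrM4. The log2 fold change was 1.38 against PC9 (SE 0.041, limma adjusted p 2.12e-06) and 1.03 against PC9-BrM4 (adjusted p 2.29e-06). TK2, the mitochondrial thymidine kinase, fell from 11.4 and 11.1 TPM in PC9 to 4.92 and 4.61 in PC9-AMG (-1.09, adjusted p 4.5e-05). DHODH, of de novo pyrimidine synthesis, was at 12.9 and 12.4 TPM in PC9-BrM4 but 5.95 and 6.52 in PC9-AMG (-0.92, adjusted p 0.000145). APRT, the adenine salvage enzyme, rose in PC9-BrM4 from 346 and 345 to 481 and 521 TPM (0.53, adjusted p 0.000124). Against PC9-BrM4, 6 genes of the list were higher in PC9-AMG and 23 lower (median -0.25), and the 6 became 3 without PC9-BrM4 library 2.

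Among 31 other tested G1/S regulators, 7 were higher and 14 lower in PC9-AMG than in PC9, 22.6% and 45.2% beside 27.8% and 27.7% of all tested genes. CDKN1A, the p21 inhibitor of cyclin-dependent kinases and of PCNA, was at 26.9 and 30.2 TPM in PC9, 18.7 and 19.5 in PC9-BrM4, against 71 and 62.1 in PC9-AMG. It rose by 1.19 on the log2 scale from PC9 to PC9-AMG (SE 0.083, limma adjusted p 3.84e-05) and was 1.75 above PC9-BrM4 (adjusted p 4.69e-06). RB1, which restrains E2F factors, fell from 42.6 and 39.6 TPM in PC9 to 22.1 and 19.9 in PC9-AMG (-0.94, adjusted p 4.67e-05). E2F2, an activator like E2F1, had 8.86 and 8.29 TPM in PC9, 12.6 and 13.9 in PC9-BrM4, against 6.06 and 6.24 in PC9-AMG, and E2F7, a repressor of the same genes, had 20.7 and 19.9 TPM in PC9 and 8.96 and 9.76 in PC9-BrM4. Their log2 fold changes in PC9-BrM4 against PC9 were 0.57 (adjusted p 0.00126) and -1.04 (adjusted p 5.74e-05). The list had 10 higher and 16 lower in that comparison, 32.3% and 51.6% beside 23.4% and 23.1% of all tested genes. In PC9-AMG against PC9-BrM4 it had 10 higher and 11 lower, 32.3% and 35.5% beside 28.1% and 28% of all tested genes, and the 10 became 6 with the regional median removed. The 7 rises against PC9 became 4 without PC9 library 1 or PC9-AMG library 1, and the 11 falls became 7 without PC9-AMG library 2.

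Replication-coupled chromatin genes fell in PC9-AMG, 11 of 13 against PC9 (median log2 fold change -0.30) and 10 of 13 against PC9-BrM4 (-0.41), with 1 higher in each. Of all tested genes 27.7% and 28% were lower in these comparisons, and 27.8% and 28.1% higher. In PC9-BrM4 against PC9, 30.8% of the list were higher and 15.4% lower, beside 23.4% and 23.1% of all tested genes. HELLS, a remodeller needed for DNA methylation, fell from 23.3 and 22.2 TPM in PC9 to 14.9 and 14.5 in PC9-AMG (-0.60, SE 0.063, limma adjusted p 0.000199). CDCA7, its partner, was at 84.2 and 87.7 TPM in PC9-BrM4 but 41.2 and 43.5 in PC9-AMG (limma adjusted p 9.78e-06). PC9-BrM4 against PC9 had 4 higher and 2 lower, or 4 and 1 after median centring; the 4 became 2 with the regional median removed, and the 2 became 1 without either PC9 library or PC9-BrM4 library 2. The 1 rise against PC9 became 0 with the regional median removed and without PC9 library 2 or PC9-AMG library 2, and the 1 against PC9-BrM4 became 0 without PC9-BrM4 library 1 or PC9-AMG library 2.

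Mitotic genes, which act after S phase, were listed for comparison. Of 30 tested, 12 (40%) were lower and 3 (10%) higher in PC9-AMG than in PC9 (median log2 fold change -0.08). Of all tested genes 27.7% and 27.8% were. In PC9-AMG against PC9-BrM4, 15 (50%) were higher and 3 (10%) lower (median 0.14), beside 28.1% and 28% of all tested genes. In PC9-BrM4 against PC9, 19 (63.3%) were lower and 2 (6.67%) higher (median -0.27), beside 23.1% and 23.4% of all tested genes. AURKB, a kinase of the chromosomal passenger complex, fell there from 159 and 171 to 108 and 105 TPM (-0.62, SE 0.057, limma adjusted p 0.000155), while CDC20, an activator of the anaphase-promoting complex, was at 274 and 275 TPM in PC9, 326 and 332 in PC9-BrM4, against 400 and 419 in PC9-AMG. Relative to its region CDC20 was 0.14 above PC9 in PC9-BrM4 and 0.13 above it in PC9-AMG, and neither was called. CENPE, a centromere motor, was at 15.3 and 17.1 TPM in PC9-BrM4 but 25.2 and 21.7 in PC9-AMG (0.51, adjusted p 0.00201). The 3 falls against PC9-BrM4 became 1 without PC9-BrM4 library 1 or PC9-AMG library 2, and the 2 rises in PC9-BrM4 became 1 without PC9 library 1 and 0 with the regional median removed. The difference between the mitotic list and the members was not tested.

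**Figure D3:**
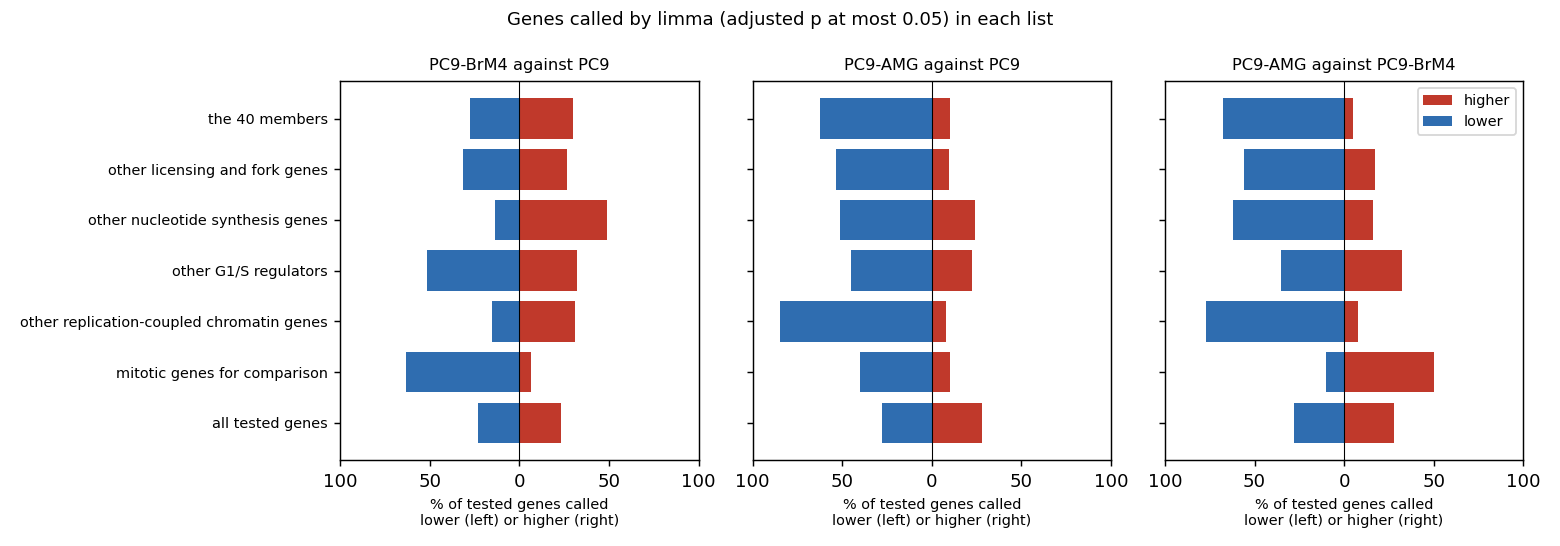
Percent of tested genes of each list called lower (bars to the left) or higher (bars to the right) by limma in each of the 3 comparisons, with all tested genes at the bottom. In PC9-AMG against PC9 the left bar of the 40 members reaches 62.5% and that of all tested genes 27.7%; in PC9-AMG against PC9-BrM4 the mitotic list points right.

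Several members moved with the genes around them. For each member the median log2 fold change of the other tested genes on the same 10 Mb stretch of its chromosome was set beside its own, and its test was repeated after each library's regional median was removed. In PC9-AMG against PC9, TK1 was at 0.32 and its 103 neighbours at 0.46, POLD1 at 0.43 and its 178 neighbours at 0.47, and ORC1 at 0.20 and its 54 neighbours at 0.28. Relative to their regions these 3 were at -0.13, -0.03 and -0.05, and none was called. MCM10 was at -0.58 with 37 neighbours at -0.53, and -0.09 remained, which was not called either. These 4 genes stood close to the level of their neighbourhood.

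Others stood away from it. PCNA was at -1.02 with 73 neighbours at -0.25, and -0.78 remained. GINS2 was at -0.88 with 79 neighbours at -0.21, and -0.69 remained. TYMS stood nearer to its neighbourhood, at -0.50 with 32 neighbours at -0.27, and -0.22 remained. CCNE1 was at 0.19 where its 33 neighbours were at -0.27, which left 0.49. LIG1 was at -0.17 where 237 neighbours were at 0.42, which left -0.58. PCNA, GINS2, TYMS, CCNE1 and LIG1 were each called relative to their regions, and LIG1 had not been called before. The other members called in PC9-AMG against PC9 only relative to their regions were CDC6 (0.17), CDT1 (0.36), RPA1 (-0.18), FEN1 (-0.16), E2F1 (-0.16) and CHAF1A (-0.36). In PC9-BrM4 against PC9, CDT1 and E2F1 kept 0.52 and 0.57 relative to their regions, and RFC3, lower in PC9-BrM4 at -0.24, was higher at 0.15 relative to 29 neighbours at -0.40. Relative to their regions, 28 members were lower and 3 higher in PC9-AMG than in PC9, 25 and 2 in PC9-AMG against PC9-BrM4, and 10 were higher and 11 lower in PC9-BrM4 against PC9. The calls that ended relative to the region were, in PC9-BrM4 against PC9, MCM7 (-0.06), MCM10 (0.17), GINS2 (0.14), RFC2 (-0.13), LIG1 (-0.12), CCNE1 (0.01), CHAF1A (0.09) and CHAF1B (0.08). In PC9-AMG against PC9 they were MCM10 and CCNE2, beside the 3 rises given above. Against PC9-BrM4 they were TK1 (0.09, beside neighbours at 0.39), CDC45 (-0.10), ORC6 (-0.08), GINS4 (-0.13), RFC5 (-0.17), RPA3 (-0.16) and RRM1 (-0.11), and POLD1 turned to -0.28. Calls were also gained relative to the region. In PC9-BrM4 against PC9 these were CDC6, ORC6, GINS3, RFC5, POLD1 and TK1. In PC9-AMG against PC9-BrM4 they were RFC2, POLE, LIG1, RRM2 and CCNE1. DNA copy number was not measured, and the part of regional shifts in these results was not tested.

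**Figure D4:**
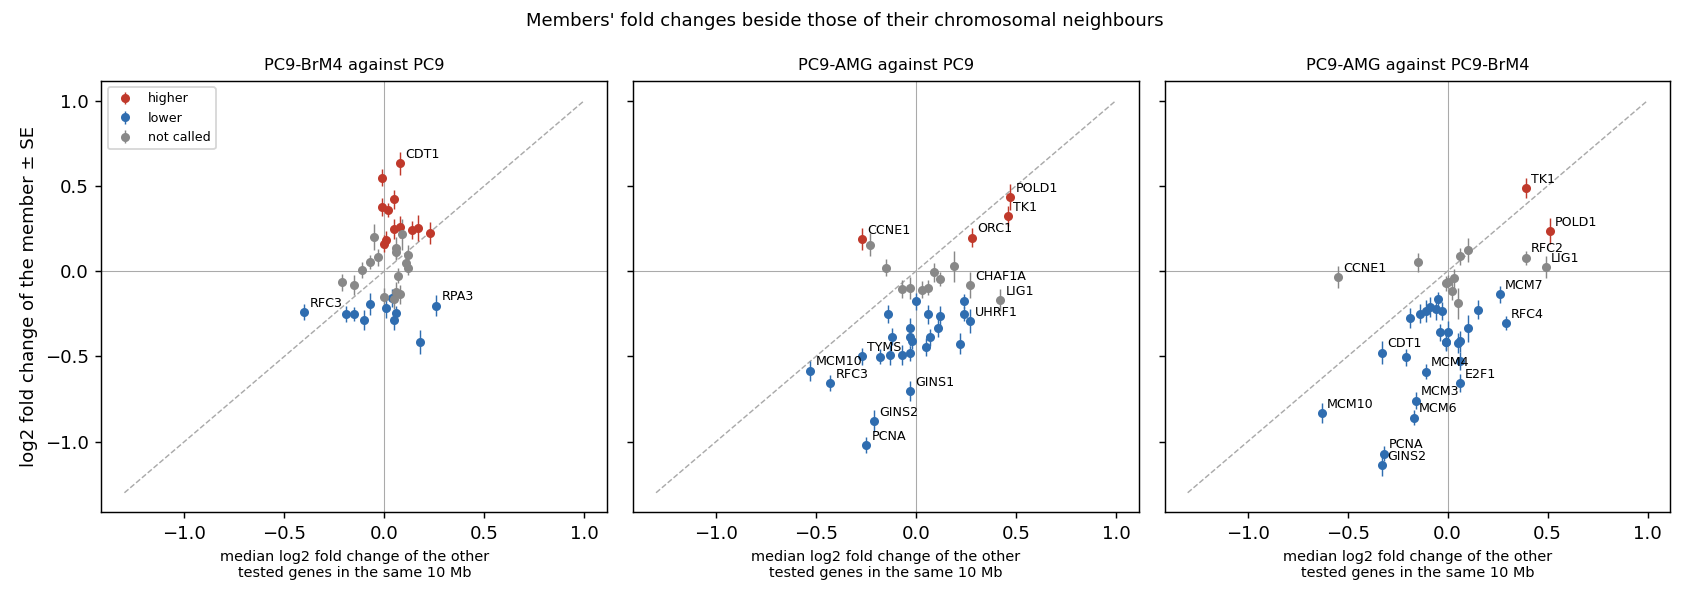
Log2 fold change of each member (vertical axis, bars ± SE) against the median log2 fold change of the other tested genes on the same 10 Mb stretch (horizontal axis) in the 3 comparisons, coloured by limma call; the dashed line marks equal values. In PC9-AMG against PC9, POLD1 and TK1 lie near the line at the upper right, and PCNA and GINS2 lie well below it.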

How the data were processed

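RNA of the 3 lines was extracted with TRIzol and made into stranded mRNA libraries, per the labels' protocols. The authors deposited 1 table per library with TPM, FPKM and coverage (mean signal per base) for each gene, per the file headers. Per the submitters' processing notes the tools included HISAT2 2.1.0 and StringTie 1.3.4d on hg38; the sources used here give neither their roles nor the annotation release. The tables of PC9-AMG carry EMG in their names and were assigned by the sample records, and a table of the whole series, whose columns use that name, was not used here.

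Rows of 1 symbol were summed. Genes with TPM of at least 1 in at least 2 libraries were tested on log2(TPM + 1), which understates changes of low genes, with limma 3.58.1 in R 4.3.3 (1 mean per line, mean-variance trend, 3 residual degrees of freedom, Benjamini-Hochberg adjusted p of at most 0.05 over 14195 genes), checked on simulated data. Aligned bases were estimated from deposited coverage over FPKM; read counts were not used, so no counting interval is given. Nothing in the labels ties a library to its own culture, so a p-value covers the spread between these libraries only, and that may be technical. Replicate numbers were not used as pairs in the main test. Deviations of same-numbered libraries correlated at -0.069 to -0.028 across genes, which cannot show whether those libraries were prepared together.

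The members and lists were chosen with earlier results of these data known. Values in all libraries were set to be printed for MCM2, PCNA, TYMS, RRM2, E2F1, CCNE1, CCNE2, UHRF1 and, per role, the member with the largest change in each comparison, and the called gene with the largest rise or fall of another list could be named. ORC1, GINS1, MCM6, MCM7, MCM10, CDC45, RFC3, POLD1 and TK1, and RFC1 of another list, were added after their values were seen. The alternatives were another pseudocount, 2 filters, 2 scalings, FPKM, the highest row of a symbol, no trend, only the lines compared, a replicate block, removal of the regional median and leaving out each library.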

Additional observations from a re-analysis of the deposited data

How the results depend on the processing

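Under 17 alternatives, the call held throughout for 8 of the 23 members called in PC9-BrM4 against PC9, 18 of 29 in PC9-AMG against PC9 and 19 of 29 in PC9-AMG against PC9-BrM4; PCNA, GINS2 and TYMS are among those in both PC9-AMG comparisons. Members higher in PC9-AMG than in PC9 numbered 2 after quantile normalization, and members higher than in PC9-BrM4 numbered 1 with no filter and 1 with no trend. With 1 library left out, where the lone library of a line is assumed to vary like the others, the counts ran from 6 to 12 (higher in PC9-BrM4 than in PC9), 6 to 11 (lower), 2 to 5 (higher in PC9-AMG than in PC9) and 1 to 3 (higher in PC9-AMG than in PC9-BrM4). The replicate block gave 12 higher and 10 lower, 3 and 25, and 2 and 27 members in the 3 comparisons, and it ended the calls of RRM2 and CCNE2 in PC9-BrM4 and of CCNE1 in PC9-AMG, each against PC9, and added POLD1 in PC9-BrM4. Removing the regional median turned the direction of log2 fold changes, listed here only where the gene was called before or after. In PC9-BrM4 against PC9, CDC6 turned to 0.16 and RFC3 to 0.15. In PC9-AMG against PC9, ORC1 turned to -0.05, POLD1 to -0.03, TK1 to -0.13 and CLSPN to -0.00. In PC9-AMG against PC9-BrM4, RFC2 turned to -0.29, POLD1 to -0.28, LIG1 to -0.46 and CCNE1 to 0.48. Members called neither before nor after turned too, such as PCNA in PC9-BrM4 against PC9 (0.05 to -0.04). The cause was not tested. With 2 libraries per line, calls near the threshold rested on single libraries.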
